A study of Mus musculus with 30 samples.

Results

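The genes that write, maintain and remove DNA methylation were followed over 5 days in mouse embryonic stem (ES) cells that were leaving the undifferentiated state. The genes were taken by the gene symbol of the array annotation: Dnmt1, Dnmt3a, Dnmt3b, Dnmt3l, Tet1, Tet2, Tet3 and Uhrf1, which are 8 of the 18193 genes measured. They were covered by 20 probe sets: 3 for Dnmt1, 5 for Dnmt3a, 2 for Dnmt3b, 1 for Dnmt3l, 4 for Tet1, 2 for Tet2, 1 for Tet3 and 2 for Uhrf1. None of the 20 was annotated to several genes. Probe sets of a gene are numbered from the brightest down, and the brightest is meant where no number is given.

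Methyl groups on cytosine are placed largely at CG dinucleotides. Dnmt3a and Dnmt3b encode the enzymes that place new methylation, and Dnmt3l encodes a relative without catalytic activity that binds and stimulates them. Dnmt1 copies the pattern onto new DNA after replication, and Uhrf1 recognises hemimethylated sites and brings Dnmt1 to them. The Tet enzymes oxidise the methyl group, which leads towards its removal. In mouse ES cells Dnmt3b, Dnmt3l, Tet1 and Tet2 are known to be active, and Tet3 is known from the egg and from differentiated cells.

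The arrays compared Fl/Fl cells, which carry floxed Jmj alleles and which the labels call wild type, with Jmj-null (Jmj -/-) cells. Jmj is the older name of Jarid2, which encodes a partner of the histone-methylating complex PRC2. Both genotypes were sampled undifferentiated at day 0 and at days 2, 4, 6 and 8 after withdrawal of LIF, a cytokine added to keep such cells undifferentiated. Fl/Fl gave 2 arrays on each day, and null gave 3 at day 0, 5 at days 2, 4 and 6, and 2 at day 8, 30 arrays in all. The labels call the replicates biological but name neither clones nor separate cultures. The p-values therefore measure the spread among these arrays, part of which may be technical. Levels are deposited probe set intensities on a linear scale, and differences are on the scale of log2(intensity + 4). A change was called where limma's adjusted p, over 45037 probe sets, was under 0.05.

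Array means lay between 331.8 and 363.6. Pou5f1, which marks undifferentiated cells, read 6474 to 9284 in Fl/Fl and 6859 to 8228 in null at day 0. The targeted gene did not separate the genotypes at day 0: Jarid2 read 3335 and 3340 in Fl/Fl and 4082, 2943 and 2872 in null. At day 4 it read 709 and 710 in Fl/Fl and 1257 to 1470 in null, and at day 6 it read 589 and 481 against 781 to 1206, so the arrays labelled null were the higher ones. Whether its probe set covers the deleted part is not known here, and null below means the arrays labelled so. Eif2s3y, which lies on the Y chromosome, divided the 20 null arrays into 3 sets: 11 arrays at 594 to 981, 5 at 217 to 365 and 4 at 11 to 16, against 130 to 234 in Fl/Fl. These sets were formed from that gene's level and are not groups of the study. The ratio of 3' to 5' actin probe sets was 1.288 to 1.43 in the high set, 1.565 to 2.024 in the middle set, 1.545 to 1.676 in the set at the floor and 1.48 to 2.037 in Fl/Fl. Day 8 held no null array of the high set.

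The bases upstream of the start sites are shown because these enzymes act on CG dinucleotides, and the windows of the genes described below differ widely in them. The RefSeq windows of GRCm38.p6 matched all 8 genes, with 15 start sites. Each line gives the 250 bases before a start, 5′ to 3′ on the gene's strand, with every CG in capitals.
Dnmt3a start 2, chr12:3806910-3807159 (plus strand): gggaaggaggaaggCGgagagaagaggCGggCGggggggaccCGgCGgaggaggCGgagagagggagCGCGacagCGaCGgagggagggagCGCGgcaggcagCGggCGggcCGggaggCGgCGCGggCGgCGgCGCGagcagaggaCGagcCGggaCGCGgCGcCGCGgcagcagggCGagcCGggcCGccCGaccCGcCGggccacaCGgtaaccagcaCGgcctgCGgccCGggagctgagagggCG
Dnmt3a start 3, chr12:3891494-3891743 (plus strand): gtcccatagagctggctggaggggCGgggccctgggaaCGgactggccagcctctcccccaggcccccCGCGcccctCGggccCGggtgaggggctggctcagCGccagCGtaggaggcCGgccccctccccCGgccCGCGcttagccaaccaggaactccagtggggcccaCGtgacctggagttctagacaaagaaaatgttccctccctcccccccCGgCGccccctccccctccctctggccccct
Dnmt3b start 1, chr2:153649199-153649448 (plus strand): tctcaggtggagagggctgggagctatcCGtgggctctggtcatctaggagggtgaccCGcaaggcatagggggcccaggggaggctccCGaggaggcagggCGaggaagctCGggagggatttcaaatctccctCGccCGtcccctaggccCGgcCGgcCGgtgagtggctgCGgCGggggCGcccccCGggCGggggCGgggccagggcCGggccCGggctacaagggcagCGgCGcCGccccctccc
Dnmt3l start 1, chr10:78042037-78042286 (plus strand): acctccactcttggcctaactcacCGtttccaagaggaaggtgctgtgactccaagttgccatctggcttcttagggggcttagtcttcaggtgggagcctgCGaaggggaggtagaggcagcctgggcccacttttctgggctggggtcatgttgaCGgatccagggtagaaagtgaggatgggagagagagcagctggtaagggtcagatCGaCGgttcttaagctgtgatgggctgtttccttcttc
Tet1 start 1, chr10:62887325-62887574 (minus strand): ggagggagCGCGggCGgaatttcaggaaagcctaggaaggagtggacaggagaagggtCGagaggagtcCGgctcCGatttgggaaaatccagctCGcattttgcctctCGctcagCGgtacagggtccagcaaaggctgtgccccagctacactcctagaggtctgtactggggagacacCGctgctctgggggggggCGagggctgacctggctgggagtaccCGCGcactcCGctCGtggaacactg
Tet2 start 1, chr3:133544391-133544640 (minus strand): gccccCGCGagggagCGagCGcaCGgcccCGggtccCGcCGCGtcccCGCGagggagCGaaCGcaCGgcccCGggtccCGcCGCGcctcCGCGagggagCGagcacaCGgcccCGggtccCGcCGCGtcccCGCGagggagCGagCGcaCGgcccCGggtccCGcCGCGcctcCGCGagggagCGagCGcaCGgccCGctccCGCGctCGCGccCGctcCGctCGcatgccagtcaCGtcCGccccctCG
CG, which reads the same on both strands, stood 51 times before the Tet2 start, and 0.067% of the 32851 windows of all genes held at least as many. The second Dnmt3a start had 40, a number reached by 1.31% of windows, and the third had 15. Dnmt3b had 21 and Tet1 15, reached by 16.3% and 27.3% of windows. The first Dnmt3l start had 5, below the median of 6, and its other starts had 4 and 3. Among the maintenance genes, the Dnmt1 starts had 2, 7 and 26 in order, and the Uhrf1 starts 10 and 30. The windows describe the reference sequence only. Methylation itself was not measured, and the start that each probe set reports is not known here.

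From day 0 to day 8 most genes of this machinery fell in both genotypes, and none was called higher. In Fl/Fl 6 of the 8 genes fell by day 8 and in null 7 of 8, judged by the brightest probe set. Over probe sets, 14 of 20 in Fl/Fl and 17 of 20 in null were lower at day 8 and 0 were higher. Of all probe sets, 24.4% changed in Fl/Fl (13.4% lower, 11% higher) and 23.9% in null (13.5% lower, 10.4% higher). The median difference of the 20 was −1.90 in Fl/Fl and −2.31 in null, where the median of all probe sets was 0 and −0.03. At day 2 the count was 3 of 20 in Fl/Fl, where 1.93% of all changed, and 2 of 20 in null, where 3.26% did. At day 4 it was 9 of 20 (12.5% of all) and 7 of 20 (9.09% of all), and at day 6 it was 14 (24.4%) and 16 (21.5%). Every called probe set was lower. These are bulk cultures, so fewer cells of a type and less RNA per cell cannot be told apart.

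**Figure D1:**
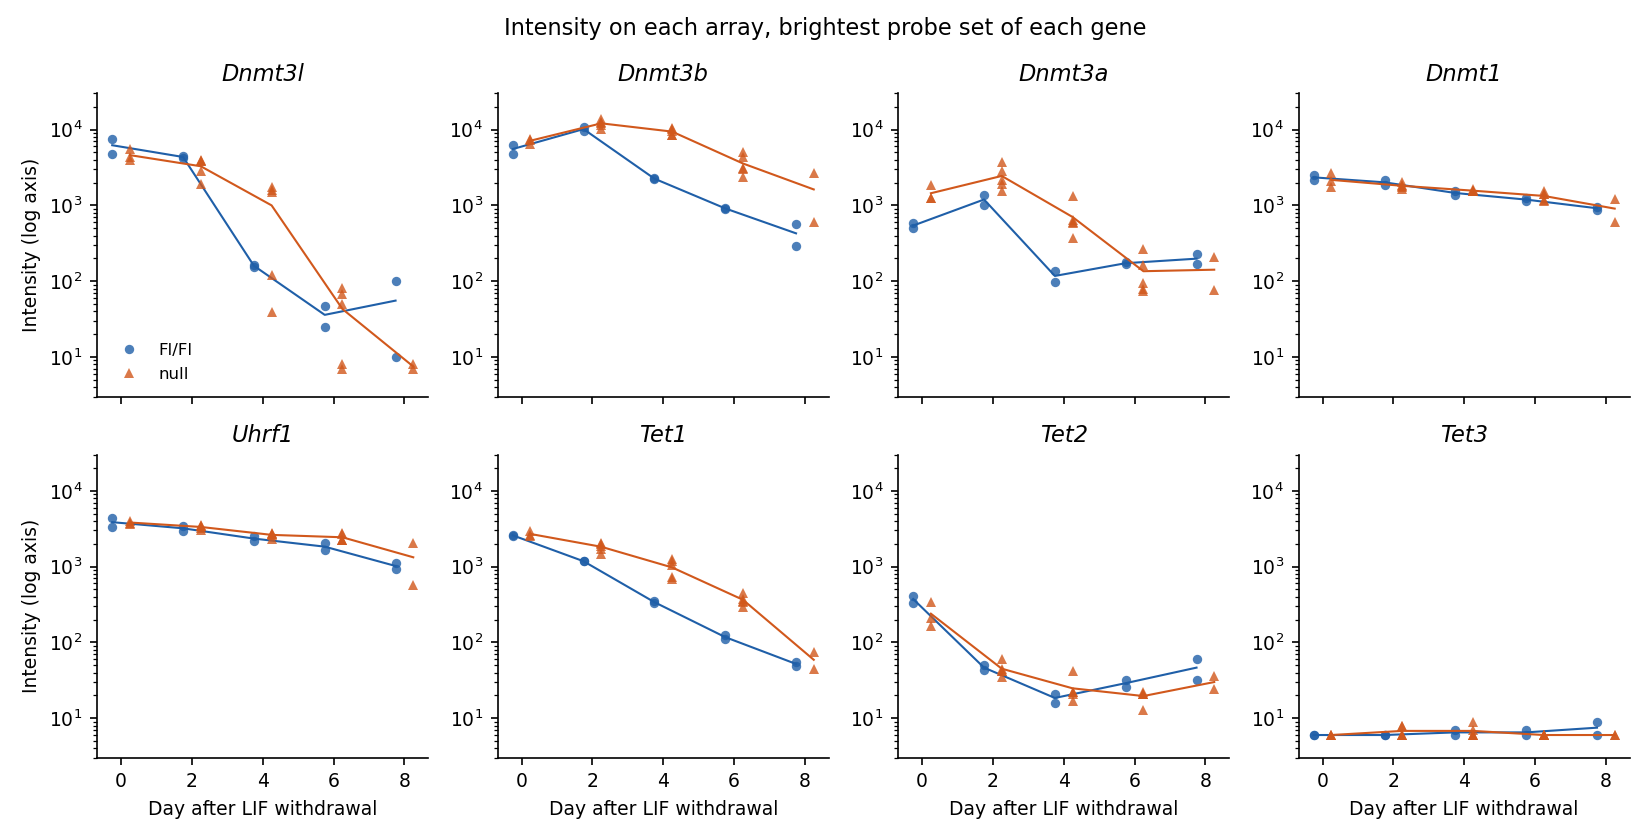
Intensity (log axis) of the brightest probe set of each gene on each of the 30 arrays against the day after LIF withdrawal, circles for Fl/Fl and triangles for null, with lines through the group means. Dnmt3l, Tet1 and Tet2 fall by more than the spread between arrays in both genotypes, Dnmt3b and Dnmt3a stand highest at day 2, and Tet3 lies at 6 to 9 throughout.

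Dnmt3l, the stimulating partner of the new-methylation enzymes, kept most of its level at day 2 and read 82 or less on every array of day 6. In Fl/Fl it read 4830 and 7631 at day 0, 4509 and 4209 at day 2, 156 and 164 at day 4, 47 and 25 at day 6, and 101 and 10 at day 8. The day 2 arrays still lay close under the lower day 0 array, and the day 4 arrays lay far below both. In null it read 4313, 4024 and 5501 at day 0, then 1938, 2837, 3890, 3862 and 3920 at day 2. At day 4 the null arrays read 122, 39, 1492, 1757 and 1599, which is a split within 1 group. At day 6 they read 8, 7, 50, 82 and 68, and at day 8 they read 8 and 7. At day 2 the log2 differences from day 0 were −0.48 in Fl/Fl and −0.52 in null, and neither passed (adjusted p = 1 in both). By day 4 Dnmt3l had fallen 37.1-fold in Fl/Fl (log2 −5.21, SE 1.38, adjusted p = 0.0158) and 9.74-fold in null (log2 −3.28, SE 1.01, adjusted p = 0.0443). By day 8 it was 158-fold lower in Fl/Fl (adjusted p = 0.000386) and 398-fold lower in null (adjusted p = 2.39e-05), with levels near the floor, where folds are understated. The Fl/Fl difference at day 8 was −8.76 without day 8 replicate 1 and −5.85 without day 8 replicate 2 (log2; adjusted p = 0.00055 and 0.016). The day 4 call in Fl/Fl was lost without day 0 replicate 2, day 4 replicate 1 or day 4 replicate 2 (adjusted p = 0.0865, 0.0725 and 0.0843). The day 4 call in null was lost without any 1 of 18 of the 30 arrays, with adjusted p up to 0.111, with an offset of 1 (0.0552) and in the fit of the compared groups (0.344).

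At null day 4 the levels of Dnmt3l separated the high set from the single array of each other set. The 3 arrays at 1492 to 1757 were those with high Eif2s3y, the array at 122 was the middle one and the array at 39 the one at the floor. High-set arrays also read above the other null arrays at days 2 and 6, and day 8 held none of that set. Against the Fl/Fl arrays of day 4, the high set was higher by log2 3.30 (adjusted p = 0.00134), and the single middle and floor arrays differed by −0.38 and −1.93, given as values with no test. Over all 5 null arrays the difference was 1.52 (SE 1.15, adjusted p = 0.64). With the set as a term in the fit, the fall from day 0 to day 4 in null was −2.99 (adjusted p = 0.00699). From day 4 to day 6 Dnmt3l fell in null by 3.80 on the log2 scale (SE 0.87, adjusted p = 0.00708), and within the 3 high-set arrays of each day by 4.54 (adjusted p = 7.02e-05). The single middle and floor arrays differed by −3.39 and −1.97 between these days, and in the fit of the compared groups the call was lost (adjusted p = 0.151). Within the high set the difference of day 4 from day 0 was −1.54 (adjusted p = 0.138). The actin ratio also differed between these sets, and its part in the result was not tested.

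**Figure D2:**
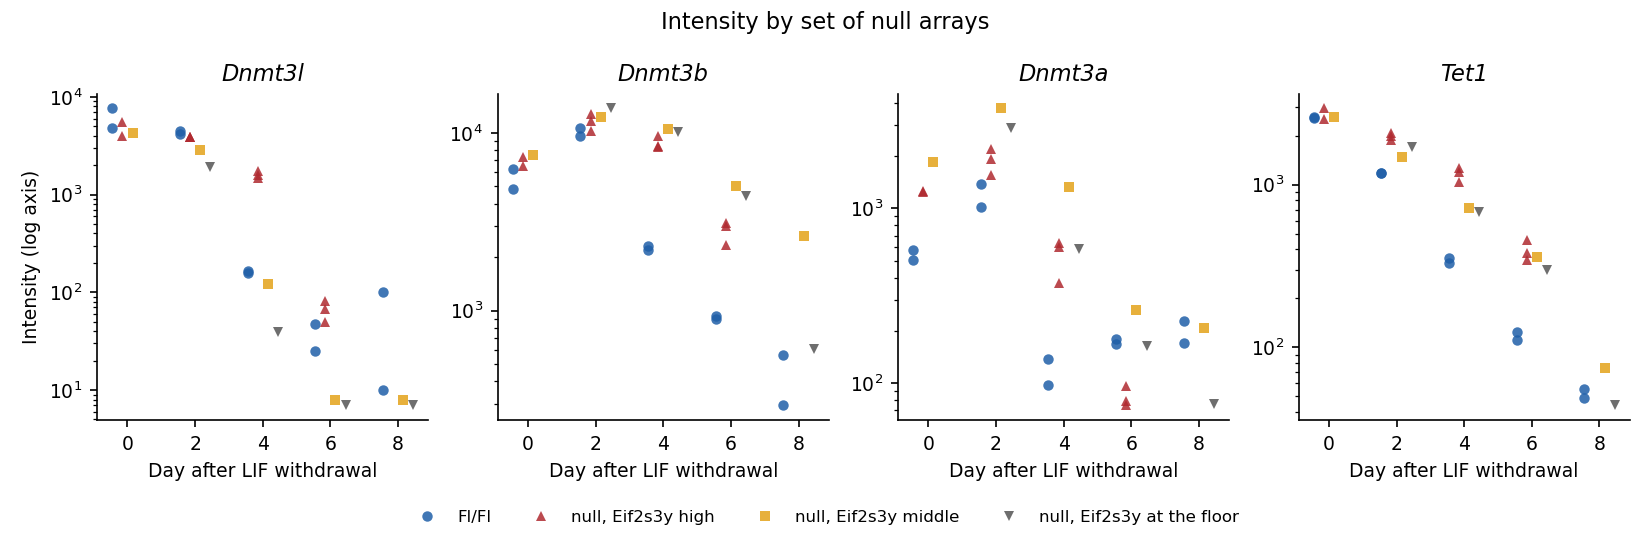
Intensity (log axis) of Dnmt3l, Dnmt3b, Dnmt3a and Tet1 on each array against the day after LIF withdrawal, with the null arrays marked by the level of Eif2s3y (high, middle or at the floor) and Fl/Fl as circles. At day 4 Dnmt3l separates the 3 high-set arrays (1492 to 1757) from the other two (122 and 39), while Dnmt3b, Dnmt3a and Tet1 lie above both Fl/Fl arrays in all 3 sets.

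Dnmt3b, a new-methylation enzyme, stood highest at day 2 and then fell, between days 2 and 4 in Fl/Fl and between days 4 and 6 in null. In Fl/Fl it read 4826 and 6271 at day 0, 10709 and 9634 at day 2, 2207 and 2308 at day 4, 897 and 931 at day 6, and 563 and 294 at day 8. In null it read 7551, 7348 and 6539 at day 0 and 13747, 12360, 10191, 11594 and 12695 at day 2. It read 10553, 10167, 8377, 8412 and 9629 at day 4, 5025, 4412, 2349, 3003 and 3110 at day 6, and 2643 and 610 at day 8. All day 2 arrays lay above all day 0 arrays of their genotype, with means at 183% and 170% of day 0. That difference did not pass in either genotype: log2 0.88 in Fl/Fl (SE 0.43, adjusted p = 0.437) and 0.76 in null (SE 0.31, adjusted p = 0.259). For null it passed in the fit of the 2 groups alone (adjusted p = 0.0285) and without either or both day 8 null arrays, which differ widely from each other (adjusted p = 0.0403).

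The fall of Dnmt3b did pass. Between day 2 and day 4 it fell 4.49-fold in Fl/Fl (log2 −2.17, SE 0.43, adjusted p = 0.00318), while in null the difference was −0.36 (SE 0.27, adjusted p = 0.645). In null the fall came from day 4 to day 6 (log2 −1.44, SE 0.27, adjusted p = 0.00125). The further drop from day 6 to day 8 in null (−1.44, adjusted p = 0.0201) rested on replicate 2 of day 8, without which it was −0.38 (adjusted p = 0.994), and was lost in the fit of the compared groups (0.484). By day 8 Dnmt3b was at 7.72% of its day 0 mean in Fl/Fl (log2 −3.74, adjusted p = 1.19e-06) and at 22.8% in null (log2 −2.48, adjusted p = 5.64e-05). The second Dnmt3b probe set gave the same order, with −2.79 from day 2 to day 4 in Fl/Fl (adjusted p = 0.00374) and −1.94 from day 4 to day 6 in null (adjusted p = 0.00102).

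Dnmt3a, the other new-methylation enzyme, also stood highest at day 2 in both genotypes and fell by day 4. In Fl/Fl it read 507 and 578 at day 0, 1018 and 1378 at day 2, 98 and 137 at day 4, 179 and 167 at day 6, and 226 and 171 at day 8. In null it read 1845, 1237 and 1265 at day 0, 2874, 3739, 1551, 1916 and 2175 at day 2, and 1326, 587, 374, 633 and 600 at day 4. At day 6 it read 264, 164, 75, 79 and 96 and at day 8 it read 208 and 76. The groups did not overlap at days 0, 2 and 4, where every null array was above both Fl/Fl arrays, and at days 6 and 8 they overlapped. How many of all probe sets showed no overlap on those days was not counted. The day 2 differences from day 0 were 1.12 in Fl/Fl (SE 0.56, adjusted p = 0.466) and 0.71 in null (SE 0.41, adjusted p = 0.538). From day 2 to day 4 Dnmt3a fell 9.91-fold in Fl/Fl (adjusted p = 0.000848) and 3.61-fold in null (adjusted p = 0.00448). In null it fell again from day 4 to day 6, by 2.38 on the log2 scale (SE 0.36, adjusted p = 0.000123), and ended at 9.8% of day 0. In Fl/Fl it was 4.55-fold lower than at day 0 by day 4 (adjusted p = 0.013) and stood at 36.6% at day 8, a difference that missed the threshold (log2 −1.44, adjusted p = 0.0683). The day 4 call in Fl/Fl was lost without day 0 replicate 2 (adjusted p = 0.0701) or day 4 replicate 1 (adjusted p = 0.0949). In fits of the compared groups it was lost too (0.0748), as was the Fl/Fl step from day 2 to day 4 (0.0682).

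The 5 Dnmt3a probe sets did not move together. Probe set 2 behaved like the brightest, with 396 and 494 at day 0, 885 and 1084 at day 2 and 65 and 83 at day 4 in Fl/Fl, and its difference at day 8 passed there (log2 −1.70, adjusted p = 0.00634). Probe set 4 was lower at day 4 than at day 2 in both genotypes (−2.35 and −1.99, adjusted p = 0.015 and 0.00276). Probe sets 3 and 5 passed in no comparison; set 3 read 37 to 150 over the 30 arrays and set 5 read 6 to 29. The transcripts these probe sets report are not known here.

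Tet1, an oxidising enzyme, fell by its brightest probe set at every step of the course in Fl/Fl and at every step after day 2 in null. In Fl/Fl it read 2563 and 2616 at day 0, 1185 and 1172 at day 2, 328 and 352 at day 4, 124 and 111 at day 6, and 55 and 49 at day 8. No 2 successive days overlapped. It fell 2.19-fold by day 2 (log2 −1.13, SE 0.25, adjusted p = 0.0192), again from day 2 to day 4 (−1.78, adjusted p = 0.00015), from day 4 to day 6 (−1.50, adjusted p = 0.00162) and from day 6 to day 8 (−1.12, adjusted p = 0.0175). In null it read 2616, 2531 and 2949 at day 0, then 1712, 1471, 1894, 1994 and 2072 at day 2 and 720, 677, 1036, 1258 and 1190 at day 4. It read 357, 297, 342, 378 and 454 at day 6, and 74 and 44 at day 8. The null difference at day 2 did not pass (−0.57, SE 0.19, adjusted p = 0.119), although all day 2 arrays lay below all day 0 arrays. With the set of null arrays as a term it was −0.50 (adjusted p = 0.032). The later steps in null passed: −0.94 to day 4, −1.38 to day 6 and −2.58 to day 8 (adjusted p = 0.00173, 7.69e-06 and 3.58e-07). At day 8 Tet1 stood at 2.01% of day 0 in Fl/Fl and 2.19% in null (adjusted p = 1.36e-12 and 4.68e-12). The first step in Fl/Fl was lost without any 1 of the 4 arrays of days 0 and 2, with adjusted p of 0.0606 to 0.0892, and the last without day 6 replicate 1, day 6 replicate 2 or day 8 replicate 2 (0.162, 0.0685 and 0.153). In fits of the compared groups the Fl/Fl steps from day 4 to day 6 and from day 6 to day 8 and the null step from day 2 to day 4 were lost (0.0606, 0.0821 and 0.065).

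The other Tet1 probe sets gave part of this. Probe sets 2 and 3 fell from day 2 to day 4 and from day 4 to day 6 in both genotypes and from day 6 to day 8 in null. The Fl/Fl step from day 0 to day 2 did not pass for probe sets 2, 3 and 4 (−1.30, −0.82 and −0.62, adjusted p = 0.076, 0.11 and 0.599), nor did that from day 6 to day 8 (adjusted p = 0.549, 0.153 and 1). Tet1 probe set 4, never above 60, passed at no step.

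Tet2, a further oxidising enzyme, had fallen by day 2 in both genotypes. In Fl/Fl it read 414 and 333 at day 0, 50 and 43 at day 2, 16 and 21 at day 4, 32 and 26 at day 6, and 61 and 32 at day 8. In null it read 342, 166 and 210 at day 0 and 35, 42, 42, 45 and 61 at day 2. It read 21, 42, 22, 22 and 17 at day 4, 21, 21, 21, 22 and 13 at day 6, and 24 and 36 at day 8. Day 0 stood clear of every later day in both genotypes. By day 2 Tet2 had fallen 7.45-fold in Fl/Fl (log2 −2.90, SE 0.35, adjusted p = 3.99e-05) and 4.82-fold in null (log2 −2.27, SE 0.25, adjusted p = 9.06e-06). Fitted on the 2 groups alone, the Fl/Fl call missed the threshold (adjusted p = 0.0738). The second Tet2 probe set fell as well, by 3.06 and 2.49 on the log2 scale (adjusted p = 0.00109 and 0.000181). The values of 61 and 32 at Fl/Fl day 8 against 32 and 26 at day 6 did not pass (0.56, SE 0.35, adjusted p = 0.637).

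Tet3, the enzyme of the egg and of differentiated cells, read 6 to 9 on every array, close to the offset of 4 added before taking logs. Its differences from day 0 lay between 0 and 0.19 on the log2 scale, and none passed (adjusted p from 0.293 to 1). An exchange of Tet1 and Tet2 for Tet3 was therefore not detectable here: the falls of Tet1 and Tet2 were measured, and a rise of Tet3 was not seen on its 1 probe set.

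Dnmt1 and Uhrf1, the maintenance pair, did not pass at day 2. By their brightest probe sets both had fallen in both genotypes by day 6, and Dnmt1 in Fl/Fl by day 4. Dnmt1 went from 2347.5 ± 234 (SD, n = 2) at day 0 to 918 ± 60.8 at day 8 in Fl/Fl, and from 2174 ± 455 (n = 3) to 908.5 ± 426 (n = 2) in null. That is 2.55-fold and 2.49-fold (log2 −1.35 and −1.32, adjusted p = 6.71e-05 and 3.25e-05). Uhrf1 went from 3860 ± 744 to 1020 ± 120 in Fl/Fl (3.75-fold, adjusted p = 9.53e-05) and from 3821 ± 146 to 1329 ± 1059 in null (3.47-fold, adjusted p = 7.25e-05). At day 2 neither gene passed in either genotype (log2 between −0.26 and −0.20, adjusted p from 0.642 to 1). At day 4 Dnmt1 passed in Fl/Fl (−0.68, adjusted p = 0.0421) and not in null (−0.45, adjusted p = 0.0832). That Fl/Fl call was lost in 14 of 40 alternative runs, and Dnmt1 probe sets 2 and 3 did not pass there (adjusted p = 0.0536 and 0.177). Uhrf1 did not pass at day 4 (−0.71 in Fl/Fl and −0.54 in null, adjusted p = 0.164 and 0.161). At day 6 both had fallen in both genotypes: Dnmt1 by 0.97 and 0.69, Uhrf1 by 1.06 and 0.65 on the log2 scale. The Uhrf1 call at null day 6 (adjusted p = 0.0478) was lost without any 1 of 26 of the 30 arrays, and that of Fl/Fl day 6 without day 0 replicate 2 or day 6 replicate 2 (adjusted p = 0.134 and 0.133). Uhrf1 probe set 2 did not pass at day 6 (−1.13 in Fl/Fl and −0.55 in null, adjusted p = 0.0845 and 0.299) and fell by day 8 (−1.69 and −2.40, adjusted p = 0.00962 and 0.000209). At null day 8 Uhrf1 read 2077 and 580, the widest gap of a pair of replicates for this gene. Cell cycle markers were also lower at day 8: the summed level of 8 of them was 36457 to 39181 at Fl/Fl day 0 and 10590 to 11414 at day 8. In null it was 34547 to 38916 and 7173 to 22241. Null day 8 also held the widest range of that sum, and its part in the result was not tested. All 8 markers were called lower at day 8 in both genotypes, but 3 of 8 at day 6. In null Mki67 read 1104 to 1199 at day 0 and 1072 to 1336 at day 6, and Cdk1 2900 to 3356 and 2952 to 3524. The markers thus did not all follow the pair along the course. The 2 weaker Dnmt1 probe sets, whose design allows binding of other transcripts, fell in both genotypes by day 6 too. In fits of the compared groups alone, the Fl/Fl day 6 calls were lost for Dnmt1 and Uhrf1 (adjusted p = 0.0501 and 0.118).

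The same fits lost several day 8 calls against day 0. In null these were Dnmt1 (adjusted p = 0.252), Uhrf1 (0.315), Dnmt3b (0.243), Dnmt3a (0.0988) and Tet2 (0.0884). In Fl/Fl they were Dnmt3l (0.104), Tet2 (0.0677) and Dnmt3b (0.0548).

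**Figure D3:**
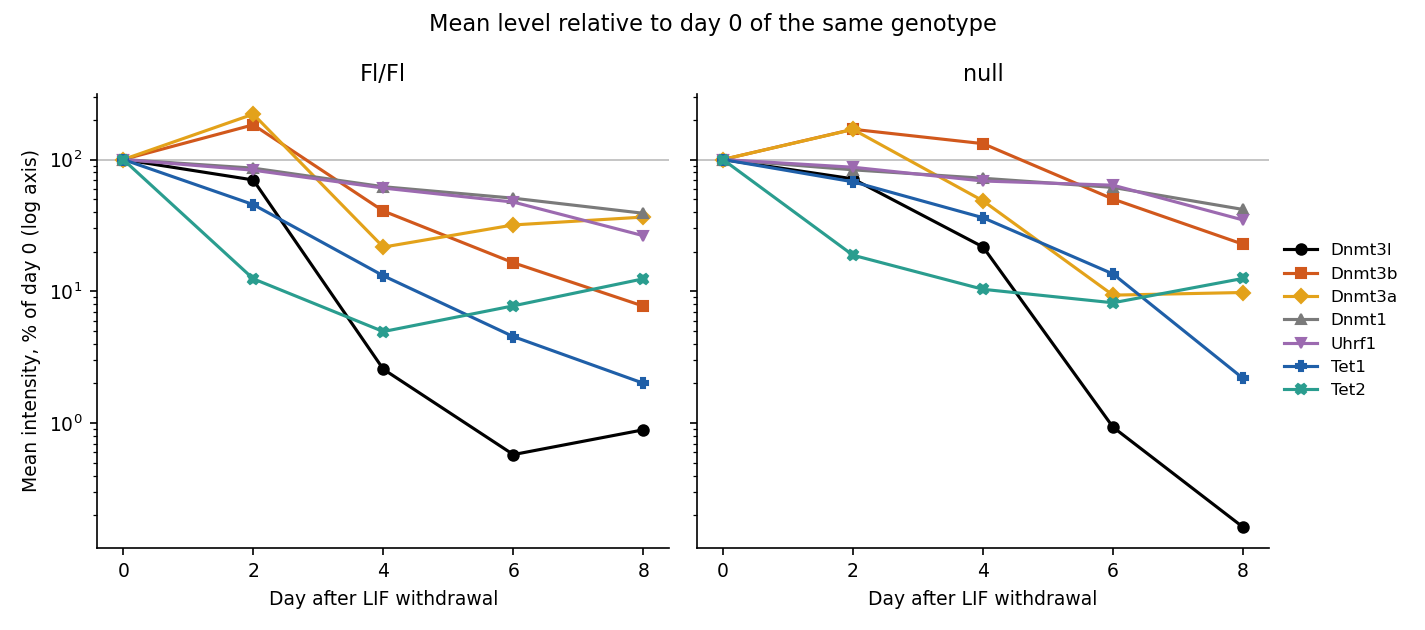
Mean intensity of each gene's brightest probe set as a percent of the day 0 mean of the same genotype (log axis) against the day after LIF withdrawal, Fl/Fl left and null right, without Tet3. At day 2 Tet2 is lowest (12.4% and 18.8%) and Dnmt3b and Dnmt3a are above 100%. At day 4 Dnmt3b is at 40.7% in Fl/Fl and 132% in null.

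The order of the losses was examined by the difference between pairs of genes over the same step, for 5 pairs and 8 steps. The pairs were added after the values were seen, so their p-values do not test an order named in advance. At day 2 in Fl/Fl the means stood, from low to high, at 12.4% of day 0 for Tet2, 45.5% for Tet1, 70% for Dnmt3l, 83% for Uhrf1, 86% for Dnmt1, 183% for Dnmt3b and 221% for Dnmt3a. In null the same day gave 18.8%, 67.8%, 71.3%, 87.4%, 83.5%, 170% and 169%. Tet2 fell further than Tet1 in this step in null (difference −1.70, SE 0.36, adjusted p = 0.00821), and in Fl/Fl the difference was −1.76 (SE 0.49, adjusted p = 0.0759). Tet1 and Dnmt3l did not differ by the test at day 2 (−0.65 and −0.04, adjusted p = 1 in both), nor did Tet2 and Dnmt3l (−2.42 and −1.74, adjusted p = 0.655 and 0.607). Tet2 minus Dnmt3l passed in 1 step, from day 4 to day 6 in null (3.55, adjusted p = 0.0208). From day 4 on Tet2 was near the floor and had little room to fall, so its differences from Tet1 and Dnmt3l in those steps give no order of losses. Dnmt3b against Dnmt3l passed in no step (adjusted p from 0.173 to 1).

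By the same pair differences, the new-methylation enzymes parted from each other in both genotypes, and the genotypes were not compared in this. The steps in null come first. From day 2 to day 4 Dnmt3a fell by 1.49 more than Dnmt3b on the log2 scale (SE 0.25, adjusted p = 0.00132), and from day 4 to day 6 by 0.94 more (adjusted p = 0.02). From day 6 to day 8 the sign turned, with Dnmt3b lower by 1.51 relative to Dnmt3a (adjusted p = 0.00882). Day 6 held null arrays of the high set and day 8 held none, so this step also compares different sets. The Dnmt3b step in it rested on day 8 replicate 2, without which it was −0.38. In Fl/Fl the day 2 to day 4 difference was −1.14 (adjusted p = 0.0946), and from day 4 to day 6 Dnmt3b lost 1.86 relative to Dnmt3a (SE 0.39, adjusted p = 0.0113). From day 6 to day 8 in Fl/Fl Dnmt3b lost 1.34 relative to Dnmt3a (adjusted p = 0.0836). Over the 10 group means, Dnmt3a and Dnmt3b correlated at 0.779 and Dnmt1 and Uhrf1 at 0.973, both as Pearson's r and as descriptions, since the points share the arrays and the time course.

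Calls between the genotypes came at days 4, 6 and 8, and none came at days 0 and 2. For Dnmt3a every null array was above both Fl/Fl arrays already at day 0, though this was not called. Groups of so few arrays can lie apart by chance. The share of all probe sets without overlap was not counted, for this or any other statement of no overlap here. At day 0 and day 2 0 of 20 probe sets passed, where 0.875% and 0.442% of all did; limma's unadjusted p was under 0.05 for 5 of 20 at day 0, of Dnmt3a and Tet2, and for 4 of 20 at day 2, of Dnmt3a and Tet1. At day 4 8 of 20 were higher in null and 0 lower, where 6.99% of all changed (2.4% higher, 4.59% lower). At day 6 5 of 20 were higher (6.65% of all changed), and at day 8 2 of 20 (2.19% of all). Averaged over the days, 9 of 20 were higher, where 16.1% of all changed. The 8 at day 4 belonged to Dnmt3a, Dnmt3b and Tet1. Some markers of undifferentiated cells were also higher in null: the summed level over 6 genes was 6210 to 6778 in Fl/Fl and 11072 to 12045 in null at day 4, and 932 to 1056 and 4342 to 8201 at day 6. At day 0 these sums were 19444 to 23765 and 18417 to 21342. The sum is mostly Pou5f1, Sox2 and Nanog, and the 6 did not move together. At day 4 Sox2 passed alone, at 623 to 654 in Fl/Fl and 2182 to 3732 in null, and Nanog overlapped (1261 to 1435 and 1037 to 2212). At day 6 Pou5f1, Sox2 and Nanog were higher in null, Klf4 was lower (132 to 140 against 7 to 15), and Zfp42 and Esrrb did not pass. Their part in the genotype differences was not tested.

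Dnmt3b was higher in null at day 4 by log2 2.05 (SE 0.36, adjusted p = 0.000915), at day 6 by 1.91 (adjusted p = 0.00179) and at day 8 by 1.63 (SE 0.43, adjusted p = 0.0479). All null arrays lay above both Fl/Fl arrays on these days. The day 8 call was the weakest: it was lost without any 1 of 26 of the 30 arrays, and without null day 8 replicate 1 the difference was 0.58 (adjusted p = 0.616). Tet1 was higher in null at day 4 by 1.47 (SE 0.21, adjusted p = 0.000143) and at day 6 by 1.59 (SE 0.21, adjusted p = 6.11e-05), in 5 of 5 arrays each. At day 8 the brightest Tet1 probe set differed by 0.13 (adjusted p = 1), while Tet1 probe set 3, at 13 and 12 in Fl/Fl and 44 and 32 in null, was higher by 1.33 (adjusted p = 0.00342), so the probe sets disagree there. Dnmt3a was higher at day 4 by 2.43 (SE 0.47, adjusted p = 0.00229), lost without Fl/Fl day 4 replicate 1 (adjusted p = 0.0618), and at days 6 and 8 the difference was −0.51 and −0.62 (adjusted p = 0.864 and 0.837). Fitted on the 2 groups of day 4 alone, Dnmt3a and Tet1 missed the threshold (adjusted p = 0.0604 and 0.0629). Dnmt1, Uhrf1, Tet2, Tet3 and Dnmt3l passed on none of the 5 days; the differences furthest from 0 were −1.74 and 1.52 for Dnmt3l at days 8 and 4 and 1.21 for Uhrf1 probe set 2 at day 6 (SE 0.39).

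**Figure D4:**
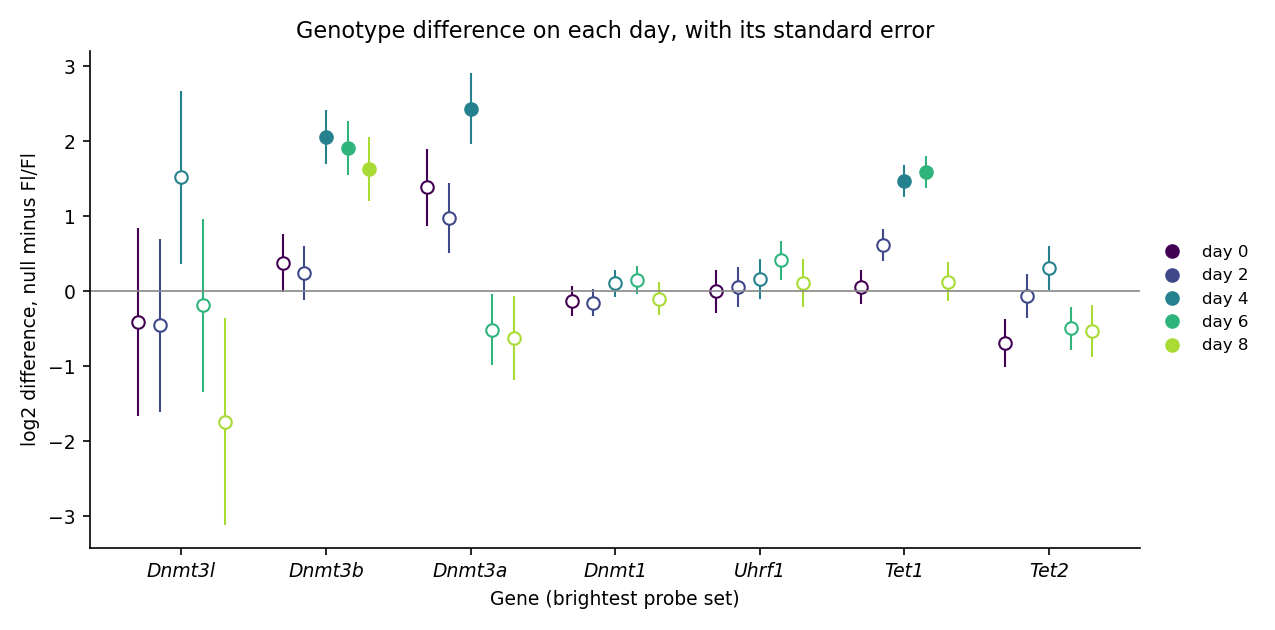
Log2 difference, null minus Fl/Fl, of each gene's brightest probe set on each day, with the standard error of the fit. Filled points passed the threshold and open points did not: Dnmt3b at days 4, 6 and 8, Dnmt3a at day 4 and Tet1 at days 4 and 6 are filled, all above 0.

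At day 4 the null arrays were 3 of the high set and 1 each of the middle and floor sets, so only the high set is tested and the single arrays are given as values. Against Fl/Fl, Dnmt3b was higher by 1.96 in the high set (adjusted p = 3.41e-05), and the middle and floor arrays differed by 2.22 and 2.17. Tet1 was higher by 1.76 in the high set (adjusted p = 4.11e-07), with 1.07 and 0.99 on the single arrays. Dnmt3a was higher by 2.13 in the high set (adjusted p = 3.38e-05), with 3.47 and 2.30 on the single arrays. For these genes all 5 null arrays lay above both Fl/Fl arrays. At day 0 Dnmt3a was 507 and 578 in Fl/Fl and 1237 to 1845 in null (log2 1.39, SE 0.51, adjusted p = 0.274). With the 2 high-set arrays alone it passed (1.20, adjusted p = 0.00966), and the single middle array differed by 1.76. At day 6 the 3 high-set arrays gave −1.03 for Dnmt3a (adjusted p = 0.00822), and the single middle and floor arrays differed by 0.60 and −0.07.

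Whether the change from day 0 itself differed between genotypes was tested apart from the level on each day. For the brightest Tet1 probe set it did: the fall by day 4 was smaller in null by 1.41 (SE 0.32, adjusted p = 0.0326) and by day 6 by 1.54 (SE 0.32, adjusted p = 0.0135). Without Fl/Fl day 4 replicate 1 the first was lost (adjusted p = 0.107), as without any 1 of 6 other arrays, and without Fl/Fl day 6 replicate 2 the second (adjusted p = 0.0817). The fit of the compared groups lost the first (0.153). Probe set 3 passed at day 6 (1.66, adjusted p = 0.0058) and not at day 4 (0.95, adjusted p = 0.223), and probe set 2 passed at neither (1.60 and 1.59, adjusted p = 0.127 and 0.0994). Tet1 probe set 4 differed by −0.11 and −0.12 (adjusted p = 1 in both). For Dnmt3b the same differences were 1.68 and 1.54 (adjusted p = 0.2 and 0.217), which passed without either null day 8 array (adjusted p = 0.0139 and 0.0147). For Dnmt3a they were 1.05 and −1.90 and did not pass (adjusted p = 0.75 and 0.27). Its higher level in null at day 4 was thus not shown to be a change in the course since day 0. Of the 20 probe sets 0 passed at day 2 (0.12% of all), 1 at day 4 (0.83%), 2 at day 6 (1.34%) and 0 at day 8 (1.05%). By limma's unadjusted p, 0 of 20 were under 0.05 at day 2 and 5 at day 8. Over all days at once limma's F test called 4 of 20, against 3.42% of all: probe sets 1 and 2 of Dnmt3a (adjusted p = 0.0353 and 0.00208) and 1 and 3 of Tet1 (0.00637 and 0.015).

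Null arrays were also set against the Fl/Fl arrays of the sampling day before, 2 days earlier. Null day 4 against Fl/Fl day 2 called 0 of 20 (1.32% of all), null day 6 against Fl/Fl day 4 0 of 20 (0.404%), and null day 8 against Fl/Fl day 6 0 of 20 (0.493%). Tet1 differed by −0.32, 0.09 and −0.99 in these comparisons (adjusted p = 0.683, 1 and 0.113) and Dnmt3b by −0.11, 0.61 and 0.47 (adjusted p = 1, 0.778 and 1). By limma's unadjusted p, 3, 0 and 5 of 20 were under 0.05, and a count of 0 does not show that the groups are alike. Dnmt3l differed by −3.21 in the first of them (SE 1.15, adjusted p = 0.198). By single steps in Fl/Fl, 10 of 20 were lower from day 2 to day 4 (6.07% of all changed), 3 from day 4 to day 6 (2.27%) and 1 from day 6 to day 8 (2.47%). In null the same steps called 6 (2.36%), 9 (7.9%) and 7 (6.6%), all lower.

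Of 51 other genes of DNA methylation and its removal, 45 were measured, each taken by its brightest probe set. By day 8, 21 fell and 4 rose in Fl/Fl, and 20 fell and 6 rose in null, with list medians of −0.51 and −0.53. Of all probe sets, 13.4% fell and 11% rose in Fl/Fl, and 13.5% fell and 10.4% rose in null, with medians of 0 and −0.03. These shares include dimmer probe sets and ones without a gene, so they are not a like rate for brightest probe sets. Of the genes listed under recruitment and protection, 6 of 7 fell in Fl/Fl and 7 of 7 in null. These were Dppa3, Zfp57, Trim28, Setdb1, Ehmt1, Ehmt2 and Prdm14, which need not act on methylation in the same direction. Dppa3, which protects methylation in the early embryo, went from 1743 to 2000 at day 0 to 17 to 31 at day 8 in Fl/Fl (log2 −6.11, adjusted p = 5.03e-08) and from 964 to 1687 to 6 to 7 in null (log2 −6.82, adjusted p = 3.98e-09). Trim28, a corepressor that keeps imprints methylated, fell by 1.64 and 1.74 on the log2 scale (adjusted p = 1.06e-08 and 1.76e-09). Ehmt2, a histone methyltransferase, had fallen by 0.91 and 0.81 already at day 2 (adjusted p = 0.00646 and 0.000663), and Zfp57, which binds imprinted sites, by 2.32 and 2.02 (adjusted p = 0.000508 and 3.3e-05).

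Among the partners of maintenance, 3 of 6 fell in each genotype. Hells, a chromatin remodeller, read 2742 to 2819 at day 0 and 243 to 335 at day 8 in Fl/Fl (log2 −3.27, adjusted p = 1.27e-07), and 2917 to 3408 and 276 to 944 in null (log2 −2.63, adjusted p = 6.85e-07). Of 9 base excision genes, which repair the site after oxidation, 6 fell and 1 rose in Fl/Fl and 5 fell and 2 rose in null. Ung, which removes uracil from DNA, fell by 3.15 and 2.90 (adjusted p = 4.64e-07 and 4.24e-07), and Polb, the gap-filling polymerase, rose by 1.00 and 0.76 (adjusted p = 0.00122 and 0.0062). Among the readers of methylation, 2 of 7 rose and 2 fell in Fl/Fl, and 4 rose and 2 fell in null. Of the 4 Gadd45 and deaminase genes, 1 rose and 1 fell in Fl/Fl, and in null the adjusted p ran from 0.0722 to 0.913. Mbd2, a methyl-CpG binding protein, read 74 to 94 at day 0 and 214 to 248 at day 8 in Fl/Fl (log2 1.42, adjusted p = 1.06e-05), and in null it rose by 0.80 (adjusted p = 0.00181). Zbtb33, which encodes the reader Kaiso, rose by 0.77 and 1.05 (adjusted p = 0.00874 and 0.000261), and in null at day 2 already (0.99, adjusted p = 0.000389).

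Between genotypes at day 4, 3 of the 45 genes were higher in null and 3 lower. Of all probe sets, not only the brightest of each gene, 2.4% were higher and 4.59% lower. Uhrf2, the relative of Uhrf1, read 462 and 471 in Fl/Fl and 156 to 252 in null (log2 −1.15, SE 0.19, adjusted p = 0.000569). Mat2b, a regulatory subunit for making the methyl donor, read 499 and 532 against 1013 to 1320 (log2 1.14, adjusted p = 0.00513), and Gadd45b was lower in null by 1.74 (adjusted p = 0.0213). Setdb1, a histone methyltransferase, and Kdm2b, which binds unmethylated CG, were higher by 0.59 and 0.57, and Idh1 was lower by 1.38 (adjusted p = 0.00557, 0.0203 and 0.0476). Uhrf2 thus lay on the other side from Dnmt3a, Dnmt3b and Tet1, while Uhrf1 differed by 0.16 (adjusted p = 0.987).

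Other cell types' markers moved over the same days. The summed level of 3 markers of the primed epiblast was 215 to 299 in Fl/Fl and 1076 to 1258 in null at day 0, and 2307 to 2369 and 4051 to 5062 at day 2, when Dnmt3b and Dnmt3a stood highest. Primitive streak markers (3 of 4 measured) summed to 3186 to 3219 at Fl/Fl day 4 and 209 to 787 at null day 4, where 1 of the 3 passed, lower in null. At day 6 they summed to 3009 to 4092 in Fl/Fl and 2705 to 10479 in null, and at day 8 to 301 to 593 and 262 to 5790. The 7 fibroblast or feeder markers summed to 198 to 468 in Fl/Fl and 56 to 167 in null at day 0, and to 11066 to 14667 and 384 to 1125 at day 8, led by Col1a1, with Lum at 10 to 49 in Fl/Fl and 5 to 6 in null. Thy1 and Dcn did not follow this sum in Fl/Fl. Thy1 read 6 to 7 there at day 0 and 8 at day 8, and Dcn read 27 to 48 at day 2 and 8 to 15 at day 8. The part of all these markers in the members' changes was not tested.

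By Pearson's r over the 10 group means, among 8899 genes, the courses most like Tet1 were those of Rcc2, Pola1 and Mrps5 (0.9974, 0.9958 and 0.9953). Those most like Dnmt3l were Klhl13, Pgp and Timm10 (0.9926, 0.9915 and 0.9901), and those most like Dnmt3b were Bag4, Tbrg4 and Kat14 (0.9892, 0.9886 and 0.9879). Dnmt3a was most like Neurod1, Msto1 and Insm1 (0.9734, 0.9696 and 0.9695), and Tet2 most like Abcb1a, Nlrp4f and Sars (0.9823, 0.982 and 0.982). Uhrf1 was most like Aggf1, Prc1 and Ttk (0.9923, 0.991 and 0.9907), and Dnmt1 most like Trim28, Ung and Ezh2 (0.9899, 0.9896 and 0.9865). The values are descriptions over points that share the same arrays, and Tet3, at the floor, is left out.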

How the data were processed

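Per the labels' protocols, total RNA was taken with Trizol and biotin-labelled cRNA was hybridized to Affymetrix arrays, 1 per sample. What was deposited is the intensity of each probe set, linear and in whole numbers. The authors' normalization was not given in the sources used here, and array means of 331.8 to 363.6 lie close together. Values were used without further normalization as log2(intensity + 4), so folds of dim genes are understated, and array number limits the precision.

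The table held 45101 probe sets; 64 controls were left out. Genes came from the platform annotation (34958 probe sets with 1 gene, 932 with several, 9211 with none). The 30 arrays were fitted with limma 3.58.1 (lmFit and eBayes, R 4.3.3), each group having its own mean (20 residual degrees of freedom), with two-sided tests and Benjamini-Hochberg adjustment over 45037 probe sets; the threshold was 0.05. The fit was tested on simulated data. Pair differences were added as rows of the same table after the values were seen.

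The 8 members, the pathway list (6 of its 51 genes not analysed here) and the markers were chosen with earlier results of these data known. Named genes were the members in every comparison, at most 4 pathway genes per direction with the smallest adjusted p, and 3 most alike genes per member; Hells in null and the marker genes named were chosen after their values were seen. Replicate numbers were checked as pairs: over 10 pairs r was −0.318 to 0.206 and 2 exceeded 0.1, so they share only a number. Alternatives changed the offset, a low-value filter, normalization, the probe set rule, the prior, the samples fitted, the replicate block and the sets of null arrays, and left out each array. Promoter windows are RefSeq's for GRCm38.p6; no gene positions were used.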

Additional observations from a re-analysis of the deposited data

Results flagged for a closer look

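In 4 of the 58 groups of probe sets and days with 4 or more arrays, 1 array stood apart from the others by Dixon's test at the 95% level, which chance alone gives in about 1 group in 20. The brightest Dnmt1 probe set read 1663 at null day 4 replicate 2, against 1531 to 1551 in the other arrays. Tet2 read 42 at null day 4 replicate 2, against 17 to 22, and 13 at null day 6 replicate 5, against 21 to 22. Its second probe set read 12 at null day 4 replicate 3, where the other arrays read 6. The Tet2 values lie near the floor.

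For 4 of 20 probe sets the difference between genotypes changed over the days by limma's F test. These were Dnmt3a probe set 1 (adjusted p = 0.0353) and probe set 2 (adjusted p = 0.00208), and Tet1 probe set 1 (adjusted p = 0.00637) and probe set 3 (adjusted p = 0.015). For Dnmt3a the log2 difference went from 1.39 at day 0 and 2.43 at day 4 to −0.62 at day 8, and for Tet1 it went from 0.06 to 1.47 to 0.13.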

How the results depend on the processing

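Of 216 results for the genes' brightest probe sets, 66 passed, and 27 of these kept direction and call under every alternative run. Other offsets, the low-value filter, quantile normalization, 75th percentile alignment, 1 probe set per gene and the trended prior moved no count of called probe sets by over 1.5 times; the alignment moved the median of all probe sets by 0.114 in the averaged comparison. Counts below are of 20 probe sets, and their causes were not tested. Fits of the compared groups alone called 1 at Fl/Fl day 2, 4 at null day 8, 5 and 0 for null against Fl/Fl at days 4 and 8, and 2 and 1 for the course difference at days 4 and 6. The replicate block, where pairs share only a number, called 2 for null against Fl/Fl at day 0, 1 for the course difference at day 8, 1 for null day 4 against Fl/Fl day 2 and 1 for null day 8 against Fl/Fl day 6. Without both null day 8 arrays, 4 passed at null day 2, and 3 and 4 for the course difference at days 4 and 6. With null arrays of the high set only, 4 passed at null day 2, 6, 2 and 8 between genotypes at days 0, 2 and 6, 6 and 8 for the course difference at days 4 and 6, 6 for null day 4 against Fl/Fl day 2 and 2 for null day 6 against Fl/Fl day 4. The middle and floor sets hold 1 array a day, assumed to vary like the other groups, so their counts support no statement. With the middle set only, 4 and 10 passed at null days 4 and 6, 4, 1 and 5 between genotypes at days 0, 2 and 8, 3 and 3 for the course difference at days 4 and 8, and 1, 1 and 2 for the later null against earlier Fl/Fl days. With the floor set only, 5, 2 and 0 passed between genotypes at days 4, 6 and 8, 1 for null day 4 against Fl/Fl day 2 and 4 for null day 8 against Fl/Fl day 6. With the set as a term, 5 and 12 passed at null days 2 and 4.

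Leaving out each array gave 2 to 4, 6 to 13, 11 to 15 and 13 to 15 calls at Fl/Fl days 2, 4, 6 and 8, and 2 to 4, 6 to 9, 12 to 16 and 14 to 17 in null. Between genotypes it gave 0 to 1, 0 to 0, 5 to 8, 3 to 7 and 1 to 5 on days 0 to 8, and 6 to 11 averaged. The course difference gave 0 to 0, 0 to 3, 0 to 4 and 0 to 3, and the later null against earlier Fl/Fl days gave 0 to 0, 0 to 0 and 0 to 5. Uhrf1 reversed without null day 8 replicate 1, to −0.81 between genotypes at day 8 (adjusted p = 0.00666) and −0.80 for the course difference (adjusted p = 0.0461); without replicate 2 the former was 1.03. Levels near the floor limit Tet2, Tet3 and late Dnmt3l.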
